A study of Mus musculus with 8 samples.

Results

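The genes described here are 7 metalloproteases (Adamts1, Adamts4, Adamts5, Adamts9, Mmp2, Mmp14 and Adam12) and 3 of their tissue inhibitors (Timp1, Timp2 and Timp3), found by symbol in the gene count table. These are 10 of the 54532 genes listed, and all 10 passed the low-count filter that left 15857 genes for testing. RNA came from lens capsules of wild-type C57BL/6 mice 6 to 8 weeks old, 7 days after surgery. The 4 ASC libraries came from eyes whose anterior capsule had been cut with a needle passed through the cornea, the injury model through which the series addresses fibrotic cataract. The 4 sham libraries came from eyes with a corneal incision and an intact capsule. Both groups were therefore wild type and had a corneal wound. The replicates are described as biological, and the sources used here do not say how many mice or capsules were pooled in each.

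Metalloproteases cut extracellular matrix and cell surface proteins at an active site that holds zinc. Enzymes of the ADAMTS family are secreted and cleave large proteoglycans such as aggrecan and versican, MMPs cleave collagens and other matrix proteins, and ADAMs are mostly membrane-bound enzymes that release the outer parts of surface proteins. The TIMPs bind the active site and block it, each with its own range of targets: Timp3 stays bound to the matrix and also inhibits ADAM and ADAMTS enzymes, and Timp2 takes part in the complex through which Mmp14 activates the proenzyme of Mmp2. In the eye the lens epithelium sits on the capsule, a thick basement membrane of type IV collagen and laminin.

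Among the 10 genes the ADAMTS protease Adamts1 had the largest difference, a mean 3.94 times higher in ASC. Timp1 and Timp3 had the next largest, 2.11 and 1.40 times higher, and the mean levels of Adamts4 and Adamts5 were slightly lower. In RNA from whole tissue, more cells of a type and more RNA per cell cannot be told apart. In edgeR's quasi-likelihood test 0 of the 10 genes passed an adjusted p of 0.05, where 1.02% of all tested genes did (162 of 15857, 100 of them higher in ASC). At an unadjusted p under 0.05 there were 3 of the 10, all higher, against 6.82% of all genes higher at that level. DESeq2 called Adamts1, Timp1 and Timp3 as higher, where it called 2.12% of all genes higher, and limma-voom called Adamts1 alone, where it called 0.555% higher. On simulated counts drawn with the spread between libraries that edgeR had estimated, DESeq2 made a higher share of false calls than edgeR or limma-voom. That setting follows edgeR's own estimates, so it does not settle which test is right for these genes. Timp1 and Timp3 were called by DESeq2 and by edgeR without a low-count filter, in no other alternative run. The log2 fold change was positive for 7 of the 10 genes, beside 51.4% of all tested genes. Its median was 0.10 over the 7 proteases and 0.49 over the 3 inhibitors, beside 0.01 over all tested genes.

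**Figure D1:**
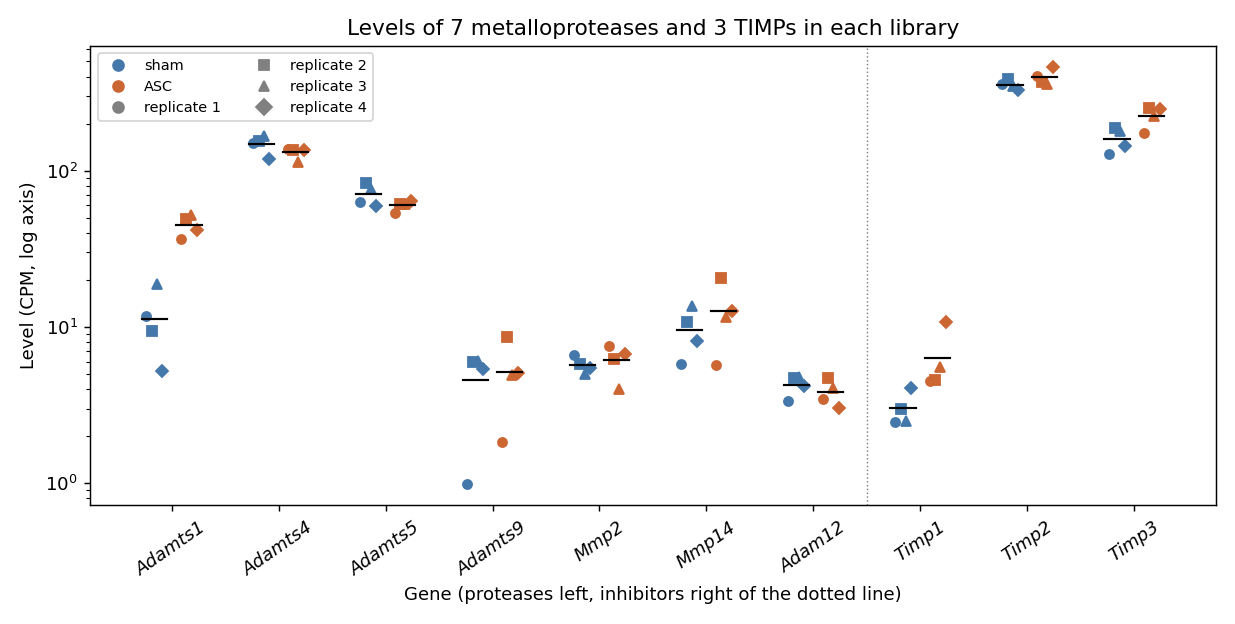
Level of each gene in each library in CPM on a log axis, with sham in blue, ASC in orange, a marker shape for each replicate number and a black line at each group mean. Adamts1 and Timp1 are the genes whose 4 ASC points all lie above the 4 sham points.

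Adamts1 (ENSMUSG00000022893) encodes a secreted protease that cleaves versican and aggrecan. In sham libraries 1 to 4 it stood at 11.8, 9.43, 18.7 and 5.21 CPM (a count scaled by the size of its library), and in ASC libraries 1 to 4 at 36.5, 49.3, 52.2 and 41.6 CPM. Every ASC library lay above every sham library, and sham 3 was the highest of its group. The means were 11.3 ± 5.66 CPM for sham and 44.9 ± 7.18 CPM for ASC (SD, n = 4 each). The log2 fold change of ASC over sham was 1.98 (SE 0.35, 95% confidence interval 1.17 to 2.79, edgeR adjusted p = 0.0543), which just missed the threshold, and its unadjusted p was the 168th smallest of 15857. DESeq2 gave Adamts1 an adjusted p of 9.04e-10 and limma-voom one of 0.00394. Without sham 3 the edgeR adjusted p was 0.00693, without sham 4 it was 0.0239, and without any other single library it lay above 0.05, up to 0.154. The difference itself stayed between 1.75 and 2.33 when any library was left out.

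Sequence before the start site is shown for the 3 genes with the largest differences, Adamts1, Timp1 and Timp3, so that their promoters can be read side by side. RefSeq promoters of build GRCm38.p6 matched 6 of the 10 genes (Adamts1, Adamts9, Mmp14, Timp1, Timp2 and Timp3). Each line gives the 250 bases before the start site, 5′ to 3′ on the gene's strand, with GC boxes (GGGCGG or its reverse complement) and TATA motifs (TATAAA) in capitals. Adamts1 lies on the minus strand, chr16:85803114-85803363, Timp1 on the plus strand, chrX:20869916-20870165, and Timp3 on the plus strand, chr10:86300162-86300411.
Adamts1: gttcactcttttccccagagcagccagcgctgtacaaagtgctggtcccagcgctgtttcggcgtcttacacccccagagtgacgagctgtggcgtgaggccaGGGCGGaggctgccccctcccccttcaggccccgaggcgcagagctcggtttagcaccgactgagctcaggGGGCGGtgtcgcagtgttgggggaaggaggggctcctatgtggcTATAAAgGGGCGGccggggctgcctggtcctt
Timp1: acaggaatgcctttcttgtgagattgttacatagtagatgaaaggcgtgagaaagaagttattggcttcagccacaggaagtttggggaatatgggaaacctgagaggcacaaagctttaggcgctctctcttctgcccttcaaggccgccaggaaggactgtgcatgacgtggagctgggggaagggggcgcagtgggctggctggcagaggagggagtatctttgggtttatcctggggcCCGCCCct
Timp3: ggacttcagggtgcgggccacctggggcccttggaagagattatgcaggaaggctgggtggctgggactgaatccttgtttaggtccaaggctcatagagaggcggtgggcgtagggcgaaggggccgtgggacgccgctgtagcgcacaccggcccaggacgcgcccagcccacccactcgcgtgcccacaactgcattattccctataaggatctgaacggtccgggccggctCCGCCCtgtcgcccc

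A GC box was found in all 6 promoters, with 9 matches, and in 32.7% of the 32851 promoters of the same length in the table. The TATA motif was found in that of Adamts1 only among the 6, 32 bases before the start and beside one of its 3 GC boxes, and in 12.4% of all promoters. 4 further motifs were searched on both strands and had 0 matches in the 6 windows: AP-1 (TGANTCA, in 6.75% of all promoters), the cyclic AMP response element (TGACGTCA, 1.55%), EGR (GCGTGGG, 4.3%) and a paired Smad box (GTCTAGAC, 0.167%). A TEAD motif (CATTCC, 12.6% of all promoters) was found in 1 of the 6, that of Timp1, near the far end of the window. These counts say only which letters the windows hold.

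Adamts4 (ENSMUSG00000006403) encodes an aggrecan-cleaving protease and was the most abundant of the 7 protease transcripts. Its sham values were 150.2, 154.2, 167.8 and 119.2 CPM and its ASC values 138.6, 136.7, 113.1 and 135.7 CPM. The groups overlapped, with sham 4 below 3 of the ASC libraries, and the log2 fold change was -0.17 (SE 0.12, interval -0.43 to 0.08, edgeR adjusted p = 0.525). Adamts5 (ENSMUSG00000022894), the other main aggrecan-cleaving enzyme, stood at 63.2, 83.0, 76.9 and 59.6 CPM in the sham libraries and at 53.7, 61.4, 61.4 and 63.9 CPM in the ASC libraries. These ranges also overlapped, and the log2 fold change was -0.23 (SE 0.12, interval -0.49 to 0.02, edgeR adjusted p = 0.375).

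Adamts1 and Adamts5 are neighbours on chromosome 16, with 1 gene between them in the RefSeq table, a long non-coding RNA. The log2 ratio of Adamts1 to Adamts5 was -2.41, -3.12, -2.03 and -3.49 in the sham libraries and -0.56, -0.32, -0.24 and -0.62 in the ASC libraries. Every ASC library thus had the higher ratio, and the means differed by 2.33. This pair was set side by side after its values were seen, and no test was made of it.

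The other proteases had low levels and wide intervals. Adamts9 (ENSMUSG00000030022), which cleaves versican and aggrecan, ranged from 0.98 to 6.05 CPM over the sham libraries and from 1.85 to 8.69 CPM over the ASC libraries (log2 fold change 0.17, interval -1.21 to 1.55). Its low values in both groups were in the libraries numbered 1, and its sign turned negative without sham 1 or without ASC 2. Mmp14 (ENSMUSG00000000957), the membrane-anchored protease that activates Mmp2, ranged from 5.80 to 13.6 CPM in sham and from 5.74 to 20.5 CPM in ASC (0.40, interval -0.51 to 1.30). The libraries numbered 1 were again the lowest of each group. Mmp2 (ENSMUSG00000031740), a gelatinase that degrades type IV collagen, ranged from 4.99 to 6.65 CPM and from 3.99 to 7.59 CPM (0.10, interval -0.36 to 0.56). Adam12 (ENSMUSG00000054555), a membrane-anchored or secreted metalloprotease, ranged from 3.37 to 4.79 CPM and from 3.04 to 4.72 CPM (-0.16, interval -0.64 to 0.32). All 4 had overlapping groups and edgeR adjusted p-values of 0.707 to 0.932. The intervals of Adamts9 and Mmp14 include a doubling, which these libraries could not tell from no change.

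Timp1 (ENSMUSG00000001131), a secreted inhibitor of most soluble MMPs, was the least abundant of the 3 inhibitors in CPM. Its sham values were 2.48, 2.99, 2.52 and 4.09 CPM and its ASC values 4.53, 4.56, 5.55 and 10.7 CPM. All ASC libraries lay above all sham libraries, and ASC 4 stood far above the other ASC libraries. The log2 fold change was 1.08 (SE 0.31, interval 0.41 to 1.74, edgeR adjusted p = 0.124) on 52 to 64 reads per sham library and 71 to 159 per ASC library. Without ASC 4 it was 0.70, and DESeq2 called the gene (adjusted p = 0.0317). Of all tested genes 3.39% had every ASC library above every sham library, as 2 of the 10 members did, Adamts1 and Timp1.

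Timp3 (ENSMUSG00000020044) was at 128.5, 187.4, 180.8 and 144.3 CPM in the sham libraries and at 173.8, 252.3, 222.7 and 249.3 CPM in the ASC libraries. ASC 1 fell within the sham range, and the other ASC libraries lay above it. The log2 fold change was 0.49 (SE 0.15, interval 0.16 to 0.81, edgeR adjusted p = 0.155), with a DESeq2 adjusted p of 0.0474 and no call by limma-voom. Timp2 (ENSMUSG00000017466) was the most abundant of the 10 transcripts, at 358.5, 386.7, 349.2 and 326.1 CPM in the sham libraries and 401.7, 368.3, 357.6 and 462.3 CPM in the ASC libraries. Its groups overlapped, and the log2 fold change was 0.16 (interval -0.08 to 0.41, edgeR adjusted p = 0.539). Of the exon length of Timp3, 21.3% is shared with Syn3 on the opposite strand in GENCODE M21. The sources used here do not say whether reads were counted by strand, and Syn3 averaged 2.45 ± 0.565 CPM under sham surgery against 2.28 ± 1.44 CPM in ASC. Adamts9 shares 9.18% of its exon length with A730049H05Rik on the opposite strand (1.61 ± 0.740 and 1.49 ± 0.765 CPM).

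**Figure D2:**
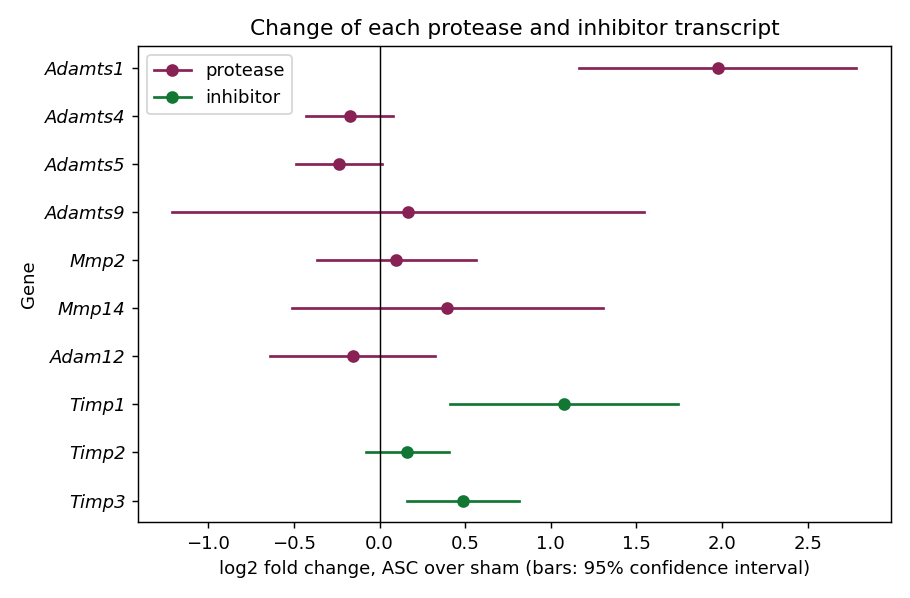
Log2 fold change of ASC over sham for each gene with its 95% confidence interval, proteases in purple and inhibitors in green. The intervals of Adamts1, Timp1 and Timp3 lie above 0, and the other 7 include 0.

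Levels of different genes were compared per kilobase of exon. In sham the order was Timp2 (91.2 ± 6.43 CPM per kilobase), Adamts4 (30.7 ± 4.26), Timp3 (19.7 ± 3.49), Adamts5 (6.55 ± 1.03), Timp1 (3.40 ± 0.847), Adamts1 (2.13 ± 1.07), Mmp2 (1.70 ± 0.209), Mmp14 (1.61 ± 0.561), Adam12 (0.403 ± 0.0621) and Adamts9 (0.305 ± 0.161). From Timp1 down to Mmp14 the mean ± SD range of each gene overlapped that of its neighbour, as did those of Adam12 and Adamts9, while the first 4 were apart from each other by more than their SDs. In ASC, Timp3 (27.6 ± 4.46 CPM per kilobase) and Adamts4 (27.2 ± 2.50) stood level. The exon length of Timp3 includes the 21.3% shared with Syn3, so its place beside Adamts4 may depend on how reads there were counted. Adamts1 (8.47 ± 1.35) was above Adamts5 (5.57 ± 0.411) in ASC, the reverse of their order in sham.

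The proteases and inhibitors were then set against each other. Summed over the 7 proteases the sham libraries averaged 254.0 ± 37.6 CPM and the ASC libraries 263.7 ± 18.4 CPM, and over the 3 inhibitors it was 518.4 ± 46.2 CPM and 628.4 ± 65.8 CPM. The log2 ratio of the summed proteases to the summed inhibitors was -1.02, -1.07, -0.86 and -1.19 in the sham libraries and -1.23, -1.12, -1.22 and -1.43 in the ASC libraries. It averaged 0.21 lower in ASC, and the groups overlapped because ASC 2 was above sham 4. In CPM a longer transcript counts for more. With CPM per kilobase of exon the difference in this ratio was -0.165. The groups then overlapped further, with ASC 1 (-1.547), ASC 2 (-1.394) and ASC 3 (-1.548) all above sham 4 (-1.598). Within the proteases the makeup differed more than the sum. Adamts1 supplied 4.31% ± 1.70 of the summed protease CPM in sham and 17.0% ± 2.69 in ASC, and Adamts4 58.3% ± 2.57 and 49.8% ± 4.73. Timp2 supplied 68.6% ± 3.33 of the summed inhibitor CPM in sham and 63.3% ± 4.49 in ASC. No test was made of these sums, and that of the proteases was lower in ASC when sham 4 was left out (-0.03 on the log2 scale, against 0.05 with all libraries).

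Each ADAM or ADAMTS protease was also paired with Timp3, a TIMP that acts on those families, and Mmp2 and Mmp14 with Timp2, their partner in the activation complex. Ratios of the ADAM and ADAMTS proteases to Timp1 or Timp2 were not examined. The log2 ratio of Adamts1 to Timp3 was -3.43, -4.30, -3.26 and -4.76 in sham and -2.25, -2.35, -2.09 and -2.58 in ASC. The ratio was higher in every ASC library, by 1.62 on average (two-sided exact permutation p = 0.0286, the smallest that 4 against 4 libraries allow). The pairs, like the members, were chosen with earlier results of these data known, so this p and those of the other pairs describe how the libraries separate and are not independent support. The other pairs with Timp3 whose groups did not overlap went the opposite way. The ratio of Adamts4 to Timp3 was 0.66 lower on the log2 scale, averaging -0.11 ± 0.24 in sham and -0.77 ± 0.30 in ASC, that of Adamts5 was 0.71 lower, from -1.18 ± 0.11 to -1.89 ± 0.15, and that of Adam12 was 0.65 lower, from -5.19 ± 0.08 to -5.84 ± 0.32. Each of these 3 also had an exact permutation p of 0.0286. Adjusted over the 7 pairs by Benjamini-Hochberg, all 4 stood at 0.05, which is not below the threshold. With 4 of 7 pairs at the smallest possible p, the adjusted value is fixed at 0.05. It therefore adds nothing to the count of separated pairs and is no measure of how close they came. The pairs of Adamts9 with Timp3 (-0.24, exact permutation p = 0.629), Mmp2 with Timp2 (-0.09, p = 0.686) and Mmp14 with Timp2 (0.17, p = 0.771) overlapped between the groups. The 5 pairs with Timp3 share its values, so they are not independent of each other. Timp3 itself had a log2 fold change of 0.486, which enters each of these ratios. Those of Adamts4, Adamts5 and Adam12 alone were -0.175, -0.235 and -0.157, with overlapping groups. The 3 lower ratios thus share the Timp3 difference and cannot be counted as 3 separate results. The part of each protease in its ratio was not tested. How many other genes have a ratio to Timp3 that separates the groups was not counted.

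**Figure D3:**
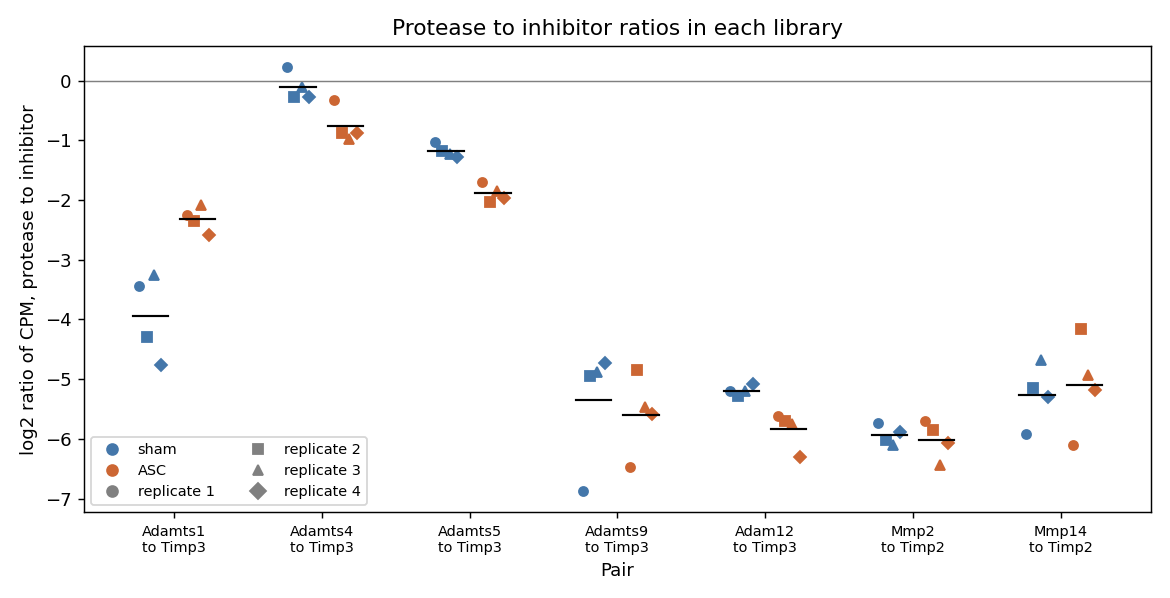
Log2 ratio of protease to inhibitor CPM in each library for the 7 pairs, sham in blue and ASC in orange, with a marker shape for each replicate number and a black line at each mean. The ratio to Timp3 was higher in every ASC library for Adamts1 and lower in every ASC library for Adamts4, Adamts5 and Adam12.

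Other genes of these families were taken from 8 lists. Of their 90 members 57 had enough reads to be tested, and 0 passed in edgeR's test (DESeq2 called 1, limma-voom 0). At an unadjusted p under 0.05 there were 5 higher and 1 lower, beside 14.7% of all genes in either direction. The median log2 fold change of the 57 was 0.19, beside 0.01 over all tested genes.

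Of the other ADAMTS enzymes 9 of 15 were tested. Adamts18, an ADAMTS protease linked to eye development, was the most abundant of them, averaging 320.5 ± 41.1 CPM over sham libraries and 301.6 ± 30.0 CPM over ASC libraries (log2 fold change -0.09, interval -0.34 to 0.17). Its level per kilobase in sham, 31.5, was close to that of Adamts4. Adamts6 stood at 43.2 ± 5.63 and 34.2 ± 4.91 CPM (-0.34, edgeR adjusted p = 0.24) and had the list's only unadjusted p under 0.05. Of the ADAMTS-like proteins, which lack the protease domain, 6 of 7 were tested and the most abundant were Adamtsl4 (67.6 ± 17.4 and 80.2 ± 22.2 CPM) and Adamtsl1 (7.77 ± 3.05 and 10.6 ± 4.55 CPM).

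Of the other MMPs 8 of 21 were tested, and those below the filter averaged at most 0.361 CPM in either group. The most abundant were Mmp11 (7.45 ± 1.87 and 7.37 ± 1.52 CPM) and Mmp15, a membrane-type MMP, at 5.42 ± 0.847 and 7.66 ± 1.81 CPM (0.50, edgeR adjusted p = 0.272). Every ASC library lay above every sham library for Mmp15. Mmp9, the other gelatinase, outside the naming rule and added after its values were seen, averaged 0.529 CPM under sham surgery against 0.986 CPM in ASC. Of 11 other ADAMs 8 were tested, led by Adam9 (107.2 ± 6.48 and 117.0 ± 8.77 CPM) and Adam10 (77.7 ± 9.76 and 80.1 ± 7.23 CPM), both surface-protein sheddases. Bmp1, an astacin protease that trims procollagen, was at 157.0 ± 6.99 and 166.1 ± 42.4 CPM, and Tll1, of the same family, at 1.96 ± 0.959 and 2.49 ± 1.56 CPM.

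Among other inhibitors 4 of 5 were tested. A2m, alpha-2-macroglobulin, a broad protease trap, ranged from 12.6 to 31.3 CPM over the sham libraries and from 22.2 to 54.4 CPM over the ASC libraries (0.97, interval -0.002 to 1.94, edgeR adjusted p = 0.34). Reck, a membrane-anchored MMP inhibitor, was at 13.7 ± 1.65 and 12.5 ± 1.53 CPM. Lrp1, an endocytic receptor that clears proteases and TIMPs, was at 460.1 ± 49.3 and 578.6 ± 62.9 CPM (0.33, edgeR adjusted p = 0.231), and Fbln1, a matrix protein that binds Adamts1, at 236.2 ± 121.0 and 328.8 ± 141.5 CPM (0.48, adjusted p = 0.765). Of 17 ADAMTS substrates and partners 11 were tested, and the most abundant were the basement membrane protein Nid1 (1884 ± 238.4 and 2155 ± 270.5 CPM) and the hyaluronan receptor Cd44 (284.3 ± 38.2 and 261.7 ± 73.0 CPM). Thbs1, a matricellular protein that Adamts1 can cleave, was named after its values were seen. The sham mean was 8.91 ± 3.18 CPM and the ASC mean 29.9 ± 10.7 CPM, with no overlap (1.73, edgeR adjusted p = 0.0698), and it was the member that DESeq2 called (adjusted p = 6.63e-07).

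**Figure D4:**
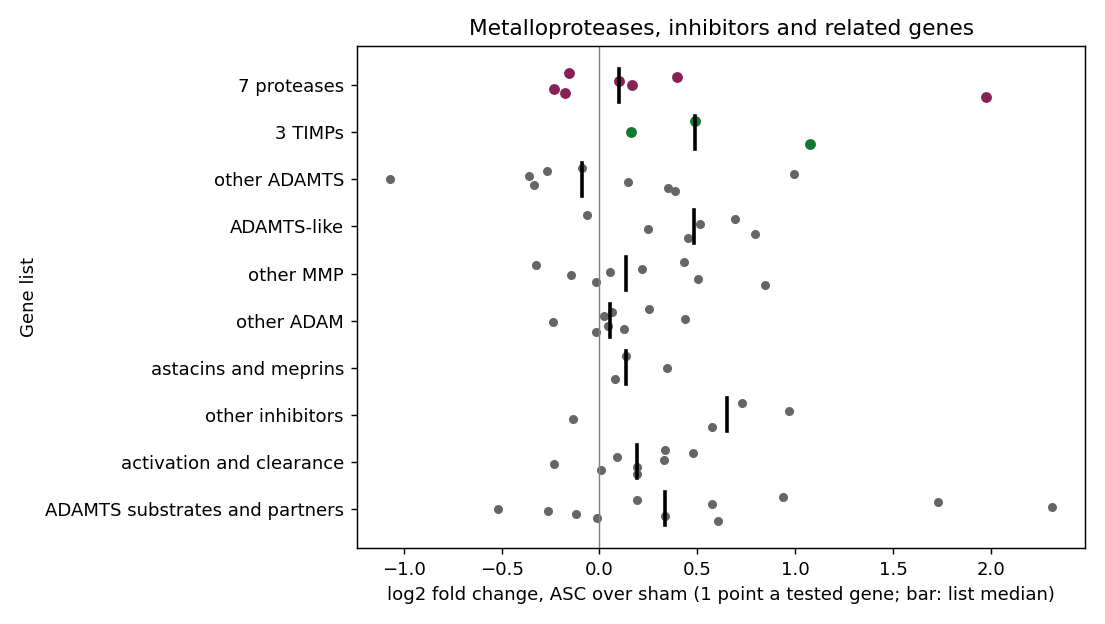
Log2 fold change of ASC over sham for every tested gene of the 8 lists of related genes, below the 7 proteases and 3 TIMPs, with 1 point a gene and a bar at each list's median. Adamts1 lies at 1.98, beyond every other tested protease shown.

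To see which genes followed the same pattern, each member's log2 CPM was correlated with that of 9545 tested genes over the 8 libraries. These correlations are descriptions: they include the difference between the groups, and all genes share the depth of their library. Adamts1 was most like Fos (Pearson r = 0.977) and Egr1 (r = 0.976), immediate early transcription factors. Egr1 rose with a log2 fold change of 5.38 (edgeR adjusted p = 0.0327), and Fos, with 4.53, did not pass (adjusted p = 0.19). Fos stood at 3.75, 3.55, 50.4 and 0.819 CPM in the sham libraries and at 355.2, 209.2, 421.8 and 382.0 CPM in the ASC libraries. Sham 3 was the highest sham library and sham 4 the lowest for Adamts1, Fos and Egr1 alike. Egr1 was at 8.61, 4.72, 18.0 and 1.56 CPM in sham and at 379.1, 204.0, 408.3 and 405.0 CPM in ASC. Within ASC the order differed, since ASC 2 had the lowest Fos and Egr1 and the second highest Adamts1.

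**Figure D5:**
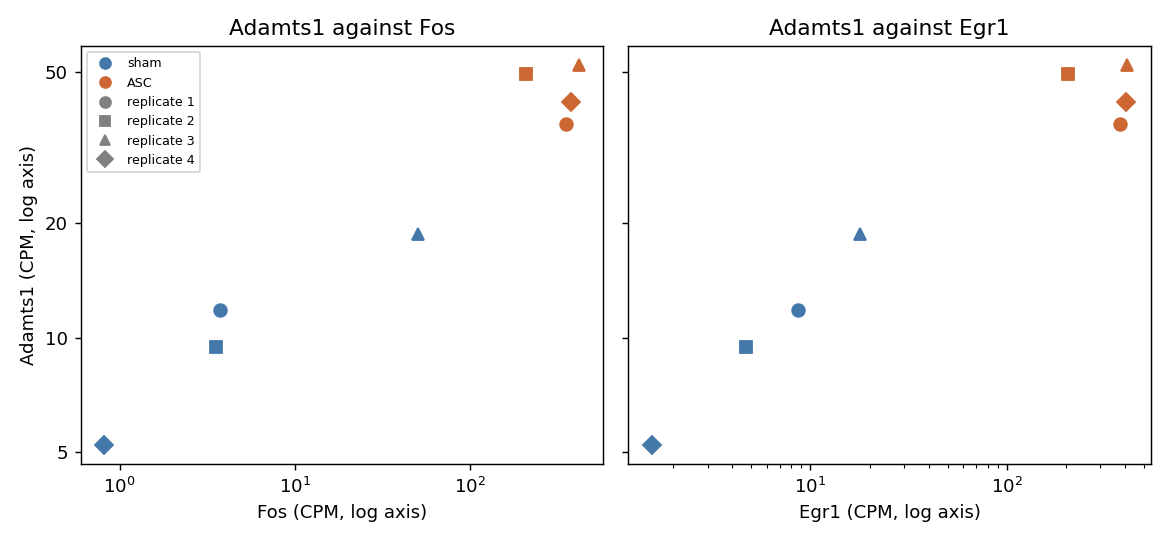
Adamts1 against Fos (left) and Egr1 (right) in CPM on log axes, 1 point a library, sham in blue and ASC in orange. Among the sham libraries, sham 3 is the highest and sham 4 the lowest on both axes of each panel.

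The genes most like the other members did not pass edgeR's test. Adamts4 was most like Rcc2 (r = 0.951) and Znfx1 (0.946), and Adamts5 most like the transcription factor Sp1 (0.977) and Zfp451 (0.968). Adamts9 was most like Cgn, a tight junction protein (0.993), and Prelp, a matrix proteoglycan (0.990). For Mmp14, Ndrg2 was among the 2 most alike (0.983). Mmp2 was most like Gga2 (0.933) and Eif2b4 (0.914), and Adam12 most like Gpr137c (0.940) and Thumpd1 (0.923). Among the inhibitors, Timp1 was most like Tmem230 (0.969) and Mvp (0.927), Timp2 like Ptgfrn (0.955) and Fzd4 (0.941), and Timp3 like Adgra3 (0.980) and the class I antigen gene H2-D1 (0.975).

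Library totals lay between 14420494 and 21141582 counts. The lens epithelial markers Pax6, Foxe3 and the alpha crystallins were present in every library, and 0 of the 7 lens epithelial and 0 of the 8 lens fibre markers passed the test. Pax6 was lower in every ASC library than in every sham library (454.6 ± 20.3 and 409.6 ± 20.75 CPM, edgeR adjusted p = 0.502), as were 899 of the 15857 tested genes. Some markers of other tissues were higher in ASC. Among the summed marker levels only that of red cell markers had no overlap between the groups. Of 3 tested corneal epithelial markers 2 rose, Krt12 (from 0.435 ± 0.422 to 4.27 ± 1.51 CPM, edgeR adjusted p = 0.0395) and Krt5 (with a log2 fold change of 3.52, adjusted p = 0.0387). Of 5 tested keratocyte and fibroblast markers 1 rose, Col1a1, from 1.55 ± 0.434 to 4.51 ± 0.469 CPM (edgeR adjusted p = 0.0186), and Kera stayed under 1 CPM. The summed levels were 27.4 to 204.0 CPM in sham and 136.1 to 631.6 CPM in ASC for pigment cell markers (0 of 6 passed), and 40.1 to 62.8 and 73.9 to 370.1 CPM for red cell markers (0 of 5). They were 7.72 to 24.7 and 13.2 to 42.2 CPM for leukocyte markers (0 of 5), 901.8 to 3776 and 1773 to 3384 CPM for retinal markers (0 of 5) and 7.07 to 18.4 and 5.36 to 14.6 CPM for endothelial markers (0 of 3). At an unadjusted p under 0.05 in the same edgeR fit, 5 of the 6 pigment, all 5 red cell, 3 of the 5 keratocyte and fibroblast, 2 of the 3 corneal and 2 of the 8 lens fibre markers were higher, and 0 of the lens epithelial, leukocyte, retinal and endothelial markers. Of all tested genes 6.82% were higher at that level. DESeq2 called 3 pigment, 4 red cell, 1 keratocyte and fibroblast, 2 corneal and 2 lens fibre markers, beside 2.12% of all genes called higher. It called 0 of the lens epithelial, leukocyte, retinal and endothelial markers. With limma-voom 1 corneal and 1 keratocyte and fibroblast marker were called and 0 in the other marker lists, beside 0.555% of all genes called higher. The corneal list summed to 384.8 to 599.3 CPM in sham and 346.8 to 940.9 CPM in ASC, the fibroblast list to 343.5 to 429.6 and 337.9 to 448.2 CPM. Most of the fibroblast sum was Pdgfra (means of 336.9 CPM in sham and 311.3 CPM in ASC), so it says little of the other markers in that list. Of the 5 tested, 2 were higher in every ASC library, Col1a1 and Dcn, beside 3.39% of all tested genes. The other tested markers of that list, Pdgfra included, overlapped between the groups. ASC 4, the library with the highest Timp1, also had the highest summed pigment, red cell and corneal levels, as noticed after the values were seen. Aldh3a1 alone stood at 920.3 CPM in ASC 4 and did not pass between the groups (edgeR adjusted p = 0.707). The leukocyte sum was highest in ASC 2 and the fibroblast and lens fibre sums in ASC 1. The lens epithelial sum, most of it Cryaa, was highest in ASC 3, and the retinal and endothelial sums in sham 3. The part of these other cells in the differences was not tested.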

How the data were processed

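The authors deposited 1 table of raw read counts per gene, with 8 columns matching the 8 samples by name. HISAT2 (version 2.0.5), featureCounts (version 1.5.0-p3), fastp and CASAVA are named, per the submitters' processing notes, without their settings. The sources used here do not give the genome build, annotation, strand setting or rule for reads matching several genes. Symbols were matched for 54409 of 54532 identifiers, and exon lengths are the union of exons in GENCODE M21.

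Counts were fitted with edgeR 4.0.16 in R 4.3.3 (filterByExpr, TMM scaling, quasi-likelihood F test with robust estimation, ASC over sham, no covariate), with p-values adjusted by Benjamini-Hochberg over all 15857 genes tested and a threshold of 0.05. The SE is the log2 fold change divided by the square root of F. Levels are CPM with TMM-adjusted library sizes, as mean ± SD over 4 libraries, and log2 ratios used log2 CPM with a prior count of 2. Pairs were compared by exact permutation over the 70 assignments of the libraries. DESeq2 1.42.0, limma 3.58.1 (voom with quality weights), other scalings and filters, the replicate number as a block and each library left out were tried as alternatives. The fits were tested on simulated data drawn with edgeR's own estimates of spread. There DESeq2 made a higher share of false calls than edgeR and limma-voom. Reads carry no molecular identifiers, so the depth of 14420494 to 21141582 counts per library refers to reads, and the spread between libraries sets the precision given.

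The named genes are all members, from each list of related genes or markers up to 4 past the threshold or else its 2 most abundant, and the 2 genes most like each member among genes averaging 3 or more in log2 CPM. The members, pairs and lists were chosen with earlier results of these data known. Promoter windows are the 250 bases before each RefSeq start. A few results that the rules above would name are not reported here.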

Additional observations from a re-analysis of the deposited data

Results flagged for a closer look

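In groups of 4, a library was marked when its gap to the nearest other, divided by the range of the group, was above Dixon's critical value at the 95% level. Of 40 groups of values examined 5 were marked, and chance marks about 1 in 20. Adamts9 was lowest in sham 1, at 0.983 CPM, and its log2 ratio to Timp3 was lowest there too, at -6.88. Timp1 was highest in ASC 4, at 10.7 CPM. Adamts4 was lowest in ASC 3, at 113.1 CPM, and its log2 ratio to Timp3 was highest in ASC 1, at -0.33.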

How the results depend on the processing

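The count of called members depended on the test. It was 0 in the edgeR fit described, 3 with DESeq2, 2 without a low-count filter, and 1 with limma-voom, with a filter of 1 CPM in 4 libraries, with the replicate block or without robust estimation. It was 0 to 1 with a library left out. Called proteases numbered 1 (Adamts1) with DESeq2, limma-voom, the 1 CPM filter, the replicate block or no robust estimation, and 0 to 1 with a library left out. Called inhibitors numbered 2 (Timp1 and Timp3) with DESeq2 and without a filter. The related lists had 1 call each with DESeq2 (Thbs1), the replicate block (Dcn) and no robust estimation (Thbs1). Adamts1 was past the threshold in 7 of 16 alternatives (adjusted p 9.04e-10 to 0.154), with a log2 fold change of 1.75 to 2.33. Over all genes the 162 calls (100 higher, 62 lower) became 593 (336 and 257) with DESeq2, 712 (430 and 282) without a filter, and 56 to 228 (40 to 167 and 16 to 61) with a library left out. With the replicate block 169 genes were called, 130 higher and 39 lower. Same-numbered libraries did not deviate together throughout (correlations of 0.217, 0.057, 0.214 and -0.09), so the numbers were not taken as pairs, and a sign-flip test over same-numbered libraries cannot go below p = 0.125. Scaling by library totals alone took the all-gene median from 0.008 to -0.116 on the log2 scale.

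Directions turned for Mmp2 with limma-voom (-0.126), with library totals alone (-0.02) and without ASC 1 (-0.02, range -0.02 to 0.259 with a library left out), and for Adamts9 without sham 1 (-0.174) or ASC 2 (-0.218, range -0.218 to 0.445). The difference in log2 ratio turned for Mmp14 to Timp2 without sham 1 (-0.053) or ASC 2 (-0.144, range -0.144 to 0.503 with a library left out), for Adamts9 to Timp3 without ASC 1 (0.054, range -0.746 to 0.054) and for Mmp2 to Timp2 without ASC 3 (0.053, range -0.194 to 0.053). The cause of these changes was not tested. The ratios of Adamts1, Adamts4, Adamts5 and Adam12 to Timp3 kept their signs in all 12 alternatives run for each. Leaving out a library moved the difference in the summed log2 ratio within -0.265 to -0.153, and that in the summed proteases from 0.054 to between -0.032 (without sham 4) and 0.13.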

Other observations

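Vcan, the versican core protein and a main ADAMTS substrate, shared the low values of Adamts9 and Mmp14 in the libraries numbered 1. It stood at 6.32, 61.7, 62.0 and 38.7 CPM in the sham libraries and at 26.0, 92.7, 86.0 and 52.3 CPM in the ASC libraries. The lowest library of each group was the one numbered 1. Prelp had 12.1 CPM in library sham 1 and 52.9 to 77.5 CPM in the other sham libraries, and 22.8 CPM in ASC 1 and 50.8 to 92.1 CPM in the other ASC libraries. Vcan and Prelp were set side by side here after their values were seen, and the sources used here give no batch for these numbers.

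Dcn, the collagen-binding proteoglycan decorin, also outside the naming rule, had sham values of 2.43, 1.96, 5.81 and 0.670 CPM and ASC values of 7.59, 8.15, 31.2 and 8.37 CPM. All ASC libraries were above the sham libraries, and ASC 3 was the highest (log2 fold change 2.31, SE 0.75, edgeR adjusted p = 0.235). Adamts12, a protease of the same family as Adamts1 at a mean of 0.891 CPM under sham surgery and 0.426 CPM in ASC, had the most negative log2 fold change among the tested ADAMTS genes, at -1.07 (interval -2.28 to 0.13).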
